A study of Mus musculus with 6 samples.

Results

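Collagen chains are the subunits of the collagen triple helix, and 44 of their genes had a mean above 0 in RNA from electroporated embryonic mouse cortex. They were taken by symbol, as every gene written Col, a type number, a and a chain number, out of 18446 genes with a mean above 0 and 25239 genes listed, and 0 collagen genes were listed at a mean of 0. They fell into 11 fibrillar chains, 6 chains of type IV, the collagen of basement membranes, and 27 chains of other types. The embryos were C57BL/6J with a genotype given as wildtype, received the electroporation in utero at E13.5 and gave polyadenylated RNA of the electroporated cortex at E15.5. In 3 libraries, labelled MPPH, the electroporation carried a Breasi-CRISPR edit that writes the Thr280Ala variant into Ccnd2, the gene of cyclin D2, and the other 3 libraries received GFP only. Only cells reached by the electroporation can carry the edit, the share of edited cells was not measured, and no group was edited without the variant, so variant and editing cannot be told apart. Neither the number of embryos in a library nor whether libraries came from separate embryos is given, so p-values measure the spread between these libraries, which may be technical.

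A collagen molecule is built from chains that fold together in the endoplasmic reticulum with the help of prolyl and lysyl hydroxylases and of the chaperone Serpinh1. Fibrillar collagens are secreted with propeptides, trimmed, aligned into fibrils and crosslinked by lysyl oxidases. Type IV collagen forms the sheet-like network of basement membranes around brain vessels and under the pial surface, where the endfeet of radial glia attach. In the developing brain fibrillar and type VI collagens are known chiefly from the meninges, the fibroblast layers covering the cortex, while neurons and radial glia make little of them. Transmembrane and fibril-associated collagens (FACITs, which decorate the surface of fibrils) have more varied sources, some of them neuronal.

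The data are the authors' own DESeq2 comparison of the 3 and 3 libraries, which does not say which group the other was divided by. Genes with a fold change above 0 are therefore said to be higher on the positive side, which may be the edited or the GFP group. The base mean of the table, a mean of counts divided by size factors, is a sum of whole reads with a fixed worth per library, and the reads of each library were recovered from it for 42 of the 44 collagen genes. The other 2, Col4a1 and Col4a2, were too abundant for the search. Libraries are numbered 1 to 3 within a side by falling size factor (positive side 1.11, 1.02 and 0.904, negative side 1.11, 1.04 and 0.850) and are not matched to labels, and total reads per library are not known. The authors' deposited table gives Ccnd2 a mean of 20340 normalised counts and a log2 fold of 0.41 ± 0.29 (standard error), not past the threshold (adjusted p = 1.00 by DESeq2), so the targeted gene does not tell the sides apart. Markers of the labelled tissue were abundant, with means of 2159 to 23689 normalised counts for 6 cortical neuron genes and 565 to 18275 for 6 radial glia genes in the authors' deposited table.

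Most collagen genes lay on the positive side, and 2 of the 44 passed the test there: Col1a1, a chain of type I collagen, and Col13a1, a transmembrane collagen. Of all tested genes in the authors' deposited table, 0.136% were called at a Benjamini-Hochberg adjusted p under 0.05 in either direction, and 0.0867% on the positive side. At an adjusted p under 0.10 the count was 4, with Col6a1 and Col5a1 added, against 0.282% of all genes. At an unadjusted p under 0.05, 17 collagen genes were higher on the positive side, against 2.77% of all genes, and 1, Col25a1, was higher on the negative side, against 1.19% (3.96% of all genes in either direction). The fold change lay above 0 for 32 collagen genes and below 0 for 12, against 48.8% of all genes above 0. The median log2 fold change was 0.34 over the collagen genes and -0.0044 over all tested genes. By group the median was 0.66 for the fibrillar chains, all 11 of them above 0, 0.28 for type IV with 4 of 6 above 0, and 0.32 for the other types with 17 of 27 above 0. The mean was at least 10 normalised counts for 33 collagen genes and under 10 for 11, and the folds of the latter have wide errors.

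**Figure D1:**
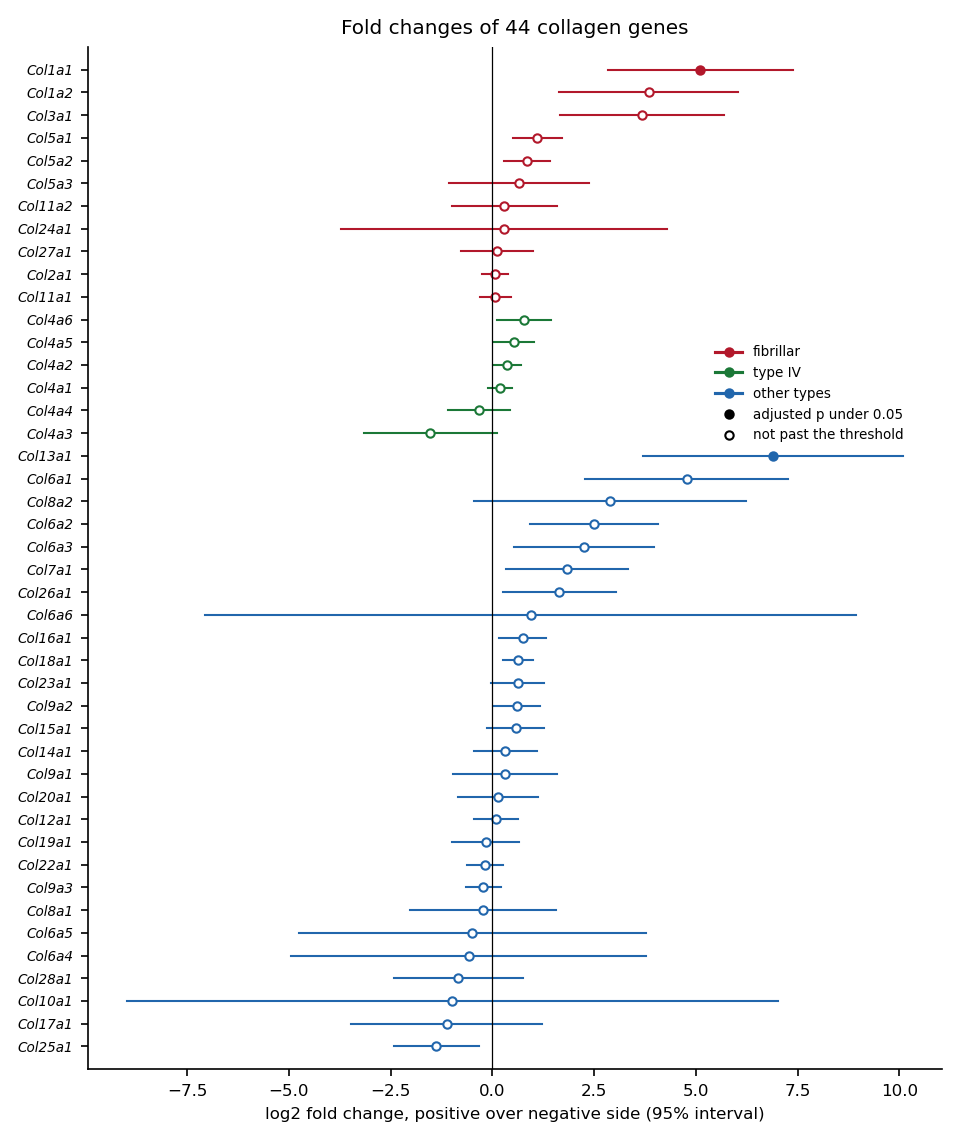
Log2 fold change (x axis, positive over negative side) of each of the 44 collagen genes in the authors' deposited table, ordered within fibrillar, type IV and other types, with points for the estimate, lines for its 95% interval and filled points for an adjusted p under 0.05. All 11 fibrillar chains lie above 0, Col1a1 at 5.11 and Col13a1 at 6.89 are the filled points, and Col6a6 and Col10a1, with 1 read each, have the widest lines.

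Levels between genes are compared as mean normalised counts per kb of annotated exon. On that scale the type IV chains Col4a1 (649 per kb) and Col4a2 (472 per kb) were the highest, ahead of Col18a1 (131), Col3a1 (114), Col1a1 (99.3), Col9a3 (78.3), Col2a1 (76.4) and Col1a2 (67.0). The highest pair by level was thus not among the leaders by fold: the log2 fold changes of Col4a1 and Col4a2 were 0.20 and 0.35 in the authors' deposited table, and Col13a1 stood at 2.38 counts per kb. The places of Col1a1, Col1a2 and Col3a1 rest on positive libraries 1 and 2. On the negative side alone they stood at 5.59, 8.75 and 16.6 normalised reads per kb, below Col18a1 (103), Col9a3 (84.4), Col2a1 (74.4) and Col22a1 (54.3).

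**Figure D2:**
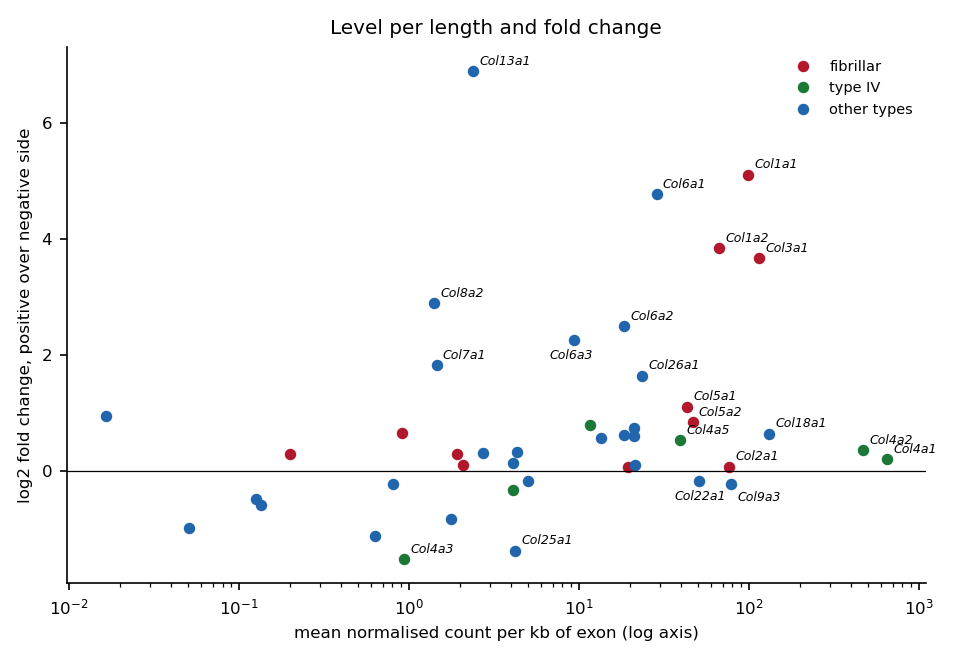
Mean normalised count per kb of exon (x axis, log scale) against log2 fold change (y axis) for the 44 collagen genes, coloured by group. The most abundant chains, Col4a1 and Col4a2, lie at 0.20 and 0.35, while the chains of types I and III and the main chains of type VI spread upwards to 5.11.

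Among the fibrillar chains, those of types I and III had the largest differences between sides, those of type V smaller ones, and those of types II and XI lay near 0. Type I collagen, the main fibril of skin, bone and meninges, joins chains from Col1a1 and Col1a2, and type III is a trimer of the Col3a1 chain found in the same fibrils. Upstream sequence is shown first for the chains of types I, III and V that led this group and had an entry, from the RefSeq promoter table (GRCm38.p6), in lower case with matches in capitals. Searched on both strands of the 250 bases before the start were the CCAAT box, by those letters, the GC box as GGGCGG and the TATA box as TATAAA. No printed match overlaps another. A CCAAT match on the other strand is printed as ATTGG, and one of the GC box as CCGCCC. For Col1a2 on the plus strand, chr6:4505497-4505526, the stretch around the CCAAT box is shown, and for Col3a1 (chr1:45311288-45311537, plus strand) and Col5a1 (chr2:27886175-27886424, plus strand) all 250 bases.
Col1a2: aaaagaatggaaCCAATttaagaagccccg
Col3a1: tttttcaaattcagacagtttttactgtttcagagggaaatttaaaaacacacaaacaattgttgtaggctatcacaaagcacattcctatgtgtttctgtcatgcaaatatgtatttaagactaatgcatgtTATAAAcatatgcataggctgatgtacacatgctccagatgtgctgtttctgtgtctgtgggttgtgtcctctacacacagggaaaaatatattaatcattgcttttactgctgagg
Col5a1: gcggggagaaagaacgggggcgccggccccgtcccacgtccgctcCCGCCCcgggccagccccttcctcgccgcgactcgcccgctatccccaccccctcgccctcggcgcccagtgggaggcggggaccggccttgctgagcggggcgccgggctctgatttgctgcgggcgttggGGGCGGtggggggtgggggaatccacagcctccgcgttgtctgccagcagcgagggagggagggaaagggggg
CCAAT in Col1a2 lies 109 to 105 bases before the RefSeq start, TATAAA in Col3a1 117 to 112 bases before it, and GGGCGG in Col5a1 on one strand or the other at 205 to 200 and 73 to 68 bases before it. Col1a1 was not matched. The Col1a2 stretch is upstream of the RefSeq start only. It lies inside the gene as annotated in GENCODE M21, chr6:4504814-4541544, which starts earlier.

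Col1a1 (ENSMUSG00000001506.10, chr11:94936224-94953042, plus strand, mm10) had 1761, 2192 and 57 reads in libraries 1, 2 and 3 of the positive side against 38, 30 and 40 on the negative side. The sides did not overlap, but library 3 of the positive side lay far below the others of its side and just above the negative libraries. Normalised reads were 1267 ± 1078 (SD, n = 3) on the positive and 36.7 ± 9.40 (SD, n = 3) on the negative side. The log2 fold in the authors' deposited table was 5.11 ± 1.16 (standard error; adjusted p = 0.024 by DESeq2's Wald test over all genes). Without library 3 the ratio of side means was 50.9, against 34.5 with it, and without library 2 it was 22.6. In limma's test on the recovered reads, an alternative added after the data were seen, the adjusted p of Col1a1 was 0.74 with all libraries and 1.7e-05 without library 3 of the positive side, and 0.73 to 0.99 without any other library.

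Col1a2 (chr6:4504814-4541544, plus strand), the partner chain in type I, had 2109, 2736 and 80 reads on the positive side against 128, 84 and 111 on the negative side. Library 3 was within the range of the negative side, so the sides overlapped. The log2 fold in the authors' deposited table was 3.84 ± 1.12 (adjusted p = 0.18 by DESeq2). Col3a1 (chr1:45311538-45349706, plus strand) had 2855, 3567 and 153 reads against 178, 149 and 157, again with library 3 inside the range of the negative side after normalisation. The authors' deposited table gives it a log2 fold of 3.68 ± 1.03 (adjusted p = 0.12 by DESeq2). Neither gene passed the test.

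The proportion of the type I chains is given as a description with no test. Per kb of exon, Col1a1 reads were 1.58, 1.52 and 1.35 times Col1a2 reads in the positive libraries and 0.562, 0.676 and 0.682 times in the negative ones. The sides did not overlap, and library 3 of the positive side, whose reads of both genes were near those of the negative libraries, had a ratio close to that of its side. Col3a1 per kb was 1.08, 1.09 and 1.79 times Col1a1 on the positive side and 3.13, 3.32 and 2.62 times on the negative side. The ratio of Col3a1 to Col1a2 overlapped between sides, with 1.65 to 2.42 on the positive and 1.76 to 2.25 on the negative side. Of these 3 ratios the ones without overlap were those that include Col1a1. Among the other chain ratios computed, only that of Col9a2 to Col9a3 did not overlap. It was 0.282 to 0.523 on the positive and 0.130 to 0.277 on the negative side. How often ratios of other genes separate the sides was not measured.

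Type V collagen sits in the core of type I fibrils and limits their width. Col5a1 (chr2:27886425-28039514, plus strand) had 540, 762 and 241 reads on the positive side against 299, 249 and 159 on the negative side. The authors' deposited table gives it a log2 fold of 1.11 ± 0.30 (adjusted p = 0.091 by DESeq2). Libraries 1 and 2 were above all others and library 3 was within the negative range once normalised. Col5a2 (chr1:45374321-45503282, minus strand), which lies tail to tail with Col3a1 at a distance of 24614 bases, had 727, 795 and 262 reads against 401, 289 and 276, and in the authors' deposited table a log2 fold of 0.84 ± 0.29 (adjusted p = 0.36). Col5a3, a rarer type V chain, had 37 reads in all and in the authors' deposited table a log2 fold of 0.66 ± 0.88. The ratio of Col5a1 to Col5a2 per kb was 0.839 to 1.08 on the positive and 0.651 to 0.973 on the negative side, which overlap.

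Col2a1, the fibril chain of cartilage that is also expressed in early neuroepithelium, and Col11a1, its partner in those fibrils, gave the narrowest fibrillar intervals. Col2a1 (chr15:97975602-98004695, minus strand) had 724, 877 and 597 reads on the positive side against 880, 749 and 470 on the negative side, with full overlap. Its log2 fold change in the authors' deposited table was 0.07 ± 0.17, with a 95% interval of -0.25 to 0.40. Col11a1 (chr3:114030540-114220718, plus strand) had 250, 327 and 195 reads against 284, 250 and 196, and a log2 fold change of 0.07 ± 0.19 (95% interval -0.31 to 0.45) in the authors' deposited table. These intervals end far below the estimates for types I and III. The level of Col11a1 per kb was 0.237 to 0.270 that of Col2a1 on the positive and 0.234 to 0.302 on the negative side. Col11a2, Col27a1 and Col24a1 had 77, 165 and 9 reads in all, and the authors' deposited table has log2 folds of 0.30 ± 0.66, 0.11 ± 0.45 and 0.29 ± 2.04 for them.

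**Figure D3:**
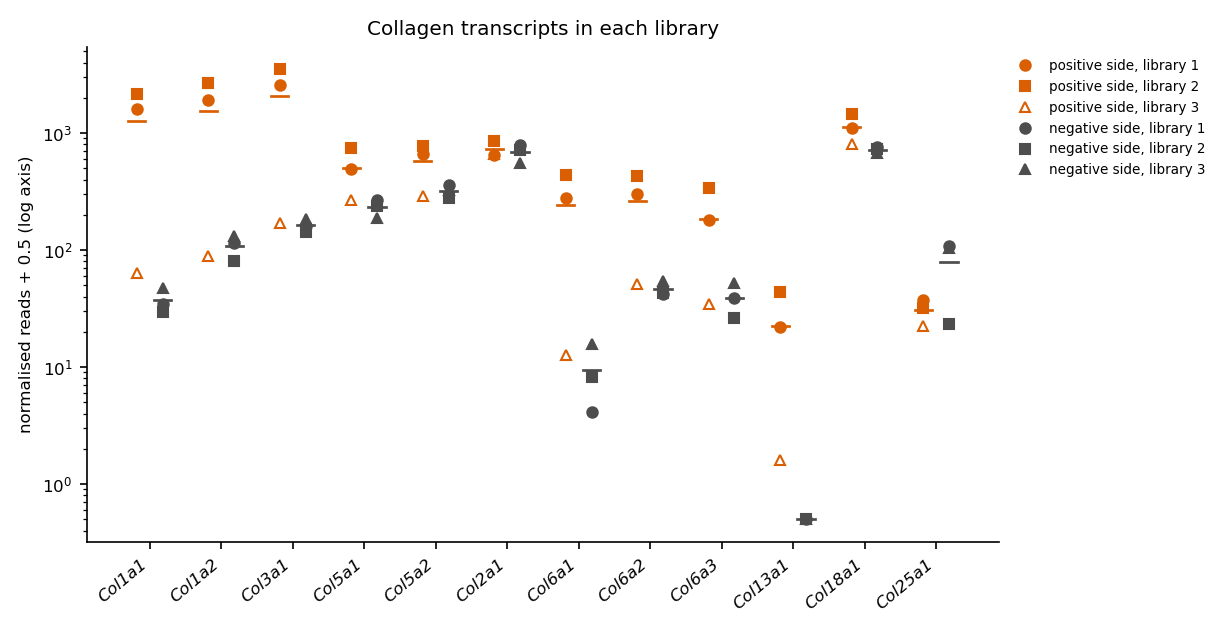
Normalised reads plus 0.5 (y axis, log scale) in each library for 12 collagen genes, with orange for the positive and grey for the negative side, shapes for libraries and short bars for side means. For Col1a1, Col1a2, Col3a1 and the type VI chains the open triangle of positive library 3 lies near the grey points, with 57 Col1a1 reads against 1761 and 2192 in libraries 1 and 2.

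The type IV chains include the leading pair by level per kb, Col4a1 and Col4a2. By DESeq2's test 0 of the 6 passed, against 0.136% of all genes. An unadjusted p under 0.05 with a fold above 0 was found for 3, against 2.77% of all genes. Type IV protomers join Col4a1 with Col4a2 chains in nearly all basement membranes, and Col4a3, Col4a4, Col4a5 and Col4a6 in more specialised ones. The genes are arranged as head-to-head pairs. Col4a1 (chr8:11198423-11312826, minus strand) and Col4a2 (chr8:11312805-11449287, plus strand) share 22 exon bases at their starts in the annotation, and short upstream stretches around matches to the CCAAT motif are shown because both genes start there, each on its gene's strand (chr8:11312954-11312983, minus, and chr8:11312761-11312790, plus).
Col4a1: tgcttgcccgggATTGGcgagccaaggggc
Col4a2: ccgaggagctccCCAATttgttggcgctgc
These are separate matches, 145 to 141 bases before the start of Col4a1 and 32 to 28 bases before that of Col4a2. Each lies within the annotated span of the other gene, so neither is upstream of both.

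Col4a1 had a mean of 4845 normalised counts and in the authors' deposited table a log2 fold of 0.20 ± 0.15, with a 95% interval of -0.10 to 0.49. Col4a2 had a mean of 3123 and in the authors' deposited table a log2 fold of 0.35 ± 0.17, with an unadjusted p of 0.042 and an adjusted p of 1.00. Reads per library were not recovered for this pair. On chromosome X, Col4a5 (chrX:141475385-141689234, plus strand) had 294, 460 and 204 reads on the positive side against 260, 219 and 174. Col4a6 (chrX:141165403-141474076, minus strand), which starts 1308 bases away from it in the other direction, had 105, 181 and 71 reads against 71, 78 and 55. After normalisation every positive library was above every negative one for Col4a6, while Col4a5 overlapped. The authors' deposited table gives them log2 folds of 0.54 ± 0.25 and 0.79 ± 0.34 (adjusted p = 1.00 and 0.94 by DESeq2). Per kb the level of Col4a6 was 0.293 to 0.332 that of Col4a5 on the positive side, against 0.230, 0.30 and 0.266 on the negative side.

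The third pair, Col4a3 (chr1:82586921-82722059, plus strand) and Col4a4 (chr1:82448423-82586849, minus strand), 71 bases apart, lay below 0. Col4a3 had 2, 4 and 8 reads on the positive side against 10, 14 and 16 on the negative side. It was the single gene of 42 resolved collagen genes with every negative library above every positive one. The nearest libraries were at 8.85 and 8.99 normalised reads. That order was found in 4.54% of resolved genes with a mean of 10 to 300. Col4a3, with a mean of 9.30, lies just outside that range. The authors' deposited table gives it a log2 fold of -1.52 ± 0.83 (adjusted p = 1.00). Col4a4 had 58, 35 and 26 reads against 53, 41 and 50, with overlap, and in the authors' deposited table a log2 fold of -0.33 ± 0.38. Col4a3 shares 563 exon bases, 5.65% of its exons, with an annotated gene on the other strand, C430014B12Rik, and whether counting used strand is not known here, so its reads may be shared. The summed normalised reads of the 4 resolved type IV genes were 415, 665 and 342 on the positive side against 354, 338 and 347 on the negative side. The median log2 ratio of sides over these 4 genes was 0.10 with all libraries, 0.0092 without positive library 1 and -0.038 without positive library 2.

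Of the partners of type IV in the basement membrane, 0 of 12 were called by DESeq2, against 0.136% of all genes. An unadjusted p under 0.05 was found for 2, both higher on the positive side, against 2.77% of all genes. These were the nidogens, linkers between laminin and type IV collagen. By the authors' deposited table Nid2 stood at a log2 fold of 0.89 ± 0.27 (adjusted p = 0.20) and Nid1 at 0.42 ± 0.21 (adjusted p = 1.00). The laminin chain Lamb1 stood at 0.25 ± 0.15 and Sparc, a collagen-binding glycoprotein, at 0.26 ± 0.16 in the authors' deposited table. The median over the 12 partners was 0.23, with 10 above 0.

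Type VI collagen forms beaded filaments that link cells to the fibrils around them. Of its 6 genes the 3 main chains had an unadjusted p under 0.05 on the positive side, against 2.77% of all genes. The DESeq2 test was passed by 0, against 0.136% of all genes. Col6a1 (chr10:76708792-76726168, minus strand) had 308, 445 and 11 reads on the positive side against 4, 8 and 13 on the negative side. Libraries 1 and 2 were far above the rest and library 3 was within the negative range. The authors' deposited table gives it a log2 fold of 4.78 ± 1.27 (adjusted p = 0.076 by DESeq2). Col6a2 (chr10:76595762-76623630, minus strand) had 330, 440 and 46 reads against 46, 44 and 46, and Col6a3 (chr1:90765923-90843971, minus strand) had 198, 349 and 31 against 43, 27 and 44. The authors' deposited table gives them log2 folds of 2.50 ± 0.81 and 2.26 ± 0.88 (adjusted p = 0.26 and 0.64).

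The proportion of Col6a1 among the type VI chains varied between libraries. Col6a1 per kb was 1.77 and 1.92 times Col6a2 in the first pair of positive libraries, 0.455 times in library 3 and 0.165, 0.346 and 0.537 times on the negative side. Here library 3 was within the negative range, unlike its ratio of type I chains. Col6a3 stayed at 0.418 to 0.552 times Col6a2 on the positive and 0.427 to 0.666 times on the negative side. The alternative chains Col6a4, Col6a5 and Col6a6 had 7, 7 and 1 reads in all, too few to compare. Summed normalised reads of the 6 genes were 761, 1208 and 98.4 on the positive side against 86.3, 76.8 and 126 on the negative side, a ratio of side means of 7.15. It was 4.46 without positive library 2 and 10.2 without positive library 3.

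Among the transmembrane collagens the members differed in direction. Col13a1 encodes a collagen of cell adhesion sites, known at the neuromuscular junction, and passed the test. Its upstream 250 bases (chr10:61979109-61979358, minus strand) are shown because it is the other gene called, with TATAAA in capitals at 237 to 232 bases before the start.
Col13a1: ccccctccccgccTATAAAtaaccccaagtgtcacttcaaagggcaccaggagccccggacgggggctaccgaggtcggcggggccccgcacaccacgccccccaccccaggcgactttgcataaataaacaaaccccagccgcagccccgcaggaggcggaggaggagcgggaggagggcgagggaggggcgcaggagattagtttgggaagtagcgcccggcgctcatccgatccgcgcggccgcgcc
The gene (chr10:61838236-61979108, minus strand) had 24, 44 and 1 reads on the positive side against 0 in each of the 3 negative libraries. The sides did not overlap, but a single read separates library 3 from them. With 3 reads over the negative side as the limit that a count of 0 allows, the positive side was at least 22.0-fold higher, and this limit covers counting error only. Without positive library 2 the bound was 11.4-fold, and without 1 of the negative libraries, which leaves fewer reads behind the limit, it was 13.8 to 15.8-fold. The log2 fold in the authors' deposited table was 6.89 ± 1.63, a fitted value that is no bound (adjusted p = 0.026 by DESeq2). In limma's test the adjusted p was 0.74 with all libraries and 0.020 without positive library 3, and 0.73 to 0.99 without any other library.

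Col25a1, the transmembrane collagen that guides motor axons to muscle and is made by neurons, was the one collagen gene with an unadjusted p under 0.05 on the negative side. It had 41, 32 and 20 reads on the positive side against 121, 24 and 88 on the negative side, where library 2 was as low as the positive libraries. The log2 fold in the authors' deposited table was -1.37 ± 0.54 (adjusted p = 0.65). Col23a1 had 141, 188 and 67 reads against 84, 85 and 80, and in the authors' deposited table a log2 fold of 0.62 ± 0.33. Col17a1, the hemidesmosome collagen of epidermis, had 23 reads in all and in the authors' deposited table a log2 fold of -1.12 ± 1.19.

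The multiplexins are basement membrane collagens whose C-terminal fragments include endostatin. Col18a1 (chr10:77052178-77166548, minus strand), needed for eye development, was the third collagen by level per kb. It had 1230, 1496 and 724 reads on the positive side against 837, 766 and 574 on the negative side. After normalisation all 3 positive libraries were above the negative ones, with side means of 1125 ± 332 and 721 ± 40.2 (SD, n = 3 each). The log2 fold in the authors' deposited table was 0.64 ± 0.19 (adjusted p = 0.18 by DESeq2). Col15a1 had 148, 120 and 49 reads against 74, 60 and 70, and in the authors' deposited table a log2 fold of 0.57 ± 0.36.

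The FACIT and FACIT-like chains held 2 genes with an unadjusted p under 0.05 on the positive side, against 2.77% of all genes. DESeq2 called 0 of 9, against 0.136% of all genes. Col16a1, found in fibroblast matrix, had 225, 230 and 93 reads against 107, 109 and 100, and in the authors' deposited table a log2 fold of 0.74 ± 0.30 (adjusted p = 0.73). Col9a2, a type IX chain that coats type II fibrils, had 84, 95 and 61 reads against 61, 59 and 37, with all positive libraries above the negative ones once normalised. Its log2 fold change was 0.60 ± 0.29 (adjusted p = 1.00) in the authors' deposited table. Col9a3, the partner chain and the sixth collagen by level per kb, had 348, 226 and 269 reads against 338, 265 and 355, and -0.23 ± 0.22 in the authors' deposited table. Exons of Col9a3 overlap Tcfl5 on the other strand over 234 bases, 6.07% of their length. The third chain, Col9a1, had 84 reads in all and a log2 fold of 0.31 ± 0.66 by the authors' deposited table. Col22a1, a chain of tissue junctions, had 471, 608 and 276 reads against 670, 437 and 407, a log2 fold change of -0.18 ± 0.23 and a 95% interval of -0.63 to 0.27 in the authors' deposited table. Col12a1, Col14a1, Col19a1 and Col20a1 ranged from -0.17 to 0.32 in log2 fold change, with overlapping sides.

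Of the remaining chains, Col26a1 had 310, 515 and 84 reads on the positive side against 97, 66 and 111 on the negative side, and in the authors' deposited table a log2 fold of 1.64 ± 0.71 (adjusted p = 0.92). Col7a1, the anchoring fibril chain of skin, had 29, 38 and 6 reads against 10, 5 and 5, and in the authors' deposited table a log2 fold of 1.83 ± 0.76 (adjusted p = 0.83). For both, libraries 1 and 2 were above the other 4. Col8a2, a short-chain network collagen known from the cornea, had 27, 9 and 0 reads against 0, 0 and 4, so that positive library 1 held most of its reads. Col8a1, Col28a1 and Col10a1, the last a marker of hypertrophic cartilage, had 38, 51 and 1 reads in all.

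**Figure D4:**
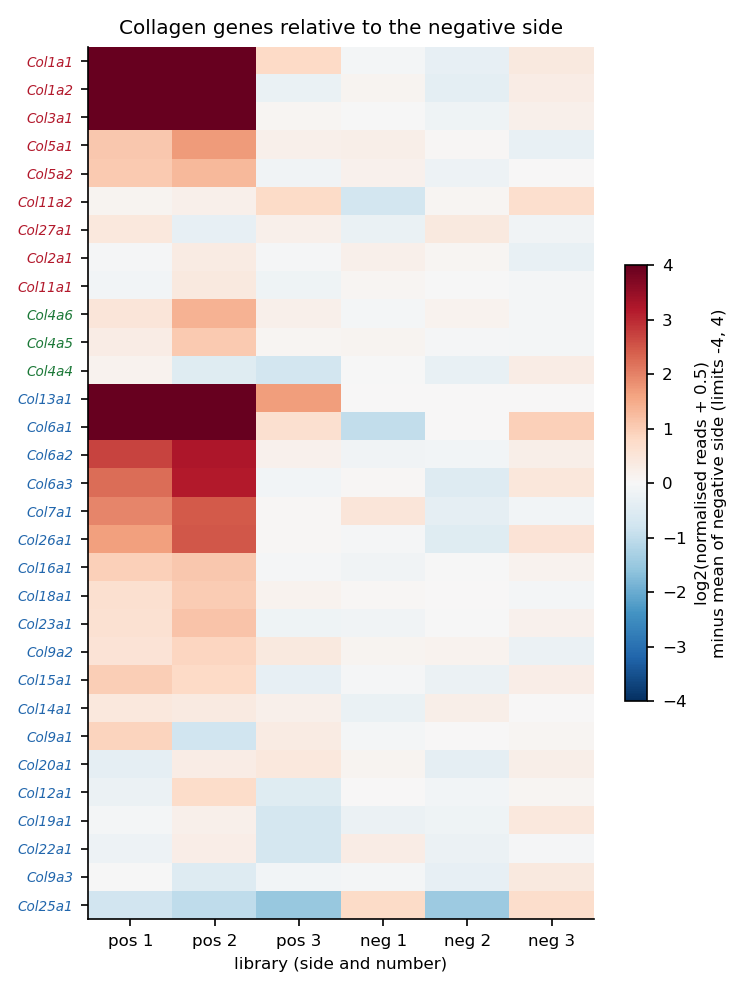
Log2(normalised reads + 0.5) minus the mean of the negative side for the 31 collagen genes with recovered reads and a mean of at least 10, in rows, by library, in columns, with gene names coloured by group (red fibrillar, green type IV, blue other types). Colours saturate at -4 and 4. The columns of positive libraries 1 and 2 are red for the chains of types I, III, V and VI, while the column of positive library 3 is pale for these genes.

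The difference between sides was carried by libraries 1 and 2 of the positive side. Of the 42 resolved collagen genes, positive library 3 was the lowest of its side in 29. Among the 21 of them with a mean of 10 to 300, positive library 3 was the lowest of its side in 17, against 50.8% of the 4957 resolved genes in that range. Libraries 1 and 2 were above the other 4 libraries in 13 of the 21, against 21.2% of those genes. All 3 positive libraries were above all negative ones in 3 of the 21, against 7.06%, and 0 of the 21 had the opposite order, against 4.54%. Summed normalised reads of the 11 fibrillar chains were 8157, 11062 and 1808 on the positive side against 2017, 1777 and 1709 on the negative side. The ratio of side means was 3.82 with all libraries and 5.24 without positive library 3, and library 3 itself stood at 0.986 times the negative mean. Over all 42 genes the ratio was 2.39, and 3.12 without positive library 3.

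The spread within sides was accordingly wide. The dispersion implied by the deposited standard errors, DESeq2's measure of variance beyond counting, was 0.95 for Col1a1, 0.90 for Col1a2, 0.76 for Col3a1 and 1.11 for Col6a1. Its median was 0.057 and its 95th percentile 0.33 over 4953 genes with a mean of 10 to 300. Col18a1, with 0.024, and Col2a1, with 0.018, were below that median. Their means, like those of Col1a1, Col1a2 and Col3a1, lie above 300, so the median is not from genes of like level. In limma's test on recovered reads, 0 of 31 collagen genes were called with all libraries, with 12 at an unadjusted p under 0.05, and 0 of all 4967 genes tested, with 316 at an unadjusted p under 0.05. Of the 4967 genes, 4957 had a mean of 10 to 300, and above 300 only collagen genes were tested. Without positive library 3, 13 of the 31 were called, all higher on the positive side, and 184 of the 4967. Leaving out any other library gave 0 calls, among collagen genes and among all 4967. An unadjusted p under 0.05 was then found for 4 to 7 collagen genes and for 145 to 325 of the 4967. The 13 were Col1a1, Col1a2, Col3a1, Col5a1, Col5a2, Col6a1, Col6a2, Col6a3, Col7a1, Col13a1, Col16a1, Col18a1 and Col26a1. Of these, Col1a1, Col1a2, Col3a1, Col5a1, Col5a2 and Col18a1 had means above 300, so 13 of 31 and 184 of 4967 are not on equal terms. The low values of positive library 3 were known before it was left out, so the 13 calls are not independent evidence.

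Markers of meningeal fibroblasts and border macrophages were also highest in positive libraries 1 and 2. Of 14 markers of meningeal fibroblasts that are not collagens, all 14 lay above 0 and 3 were called, against 48.8% and 0.136% of all genes. The median log2 fold change was 2.46. Their normalised reads summed to 2413, 3425 and 458 on the positive side against 564, 419 and 628 on the negative side. Library 3 had the lowest level of its side in 14 of 14, against 50.8% of resolved genes with a mean of 10 to 300. Cldn11, the claudin of the arachnoid barrier, had 359, 308 and 3 reads on the positive side against 2 in each negative library. Foxd1, a forkhead factor of meningeal fibroblasts, had 137, 152 and 45 reads against 40, 33 and 30. Slc22a6, an organic anion transporter named after its values were seen, had 210, 391 and 0 reads against 0 in each negative library. Foxc1, a transcription factor needed for meningeal development, had 273, 341 and 153 reads against 170, 100 and 88. Aldh1a2, which makes retinoic acid there, had 179, 233 and 2 reads against 1, 2 and 2. The part of the meningeal cells in the collagen differences was not tested, and in bulk tissue fewer cells of a type and less RNA per cell cannot be told apart.

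Border macrophages live in the meninges. Their 6 markers all lay above 0 and 1 was called, against 48.8% and 0.136% of all genes. The sums were 795, 908 and 76.3 against 49.4, 73.0 and 58.8, so that positive library 3 was far below libraries 1 and 2 and just above the negative libraries. F13a1, the called marker and a subunit of coagulation factor XIII, had 377, 411 and 26 reads against 6, 12 and 13. Of 10 endothelial markers 0 were called by DESeq2 and 7 lay above 0, against 0.136% and 48.8% of all genes. Their median log2 fold change was 0.20. The 2 with an unadjusted p under 0.05 were both higher on the positive side, against 2.77% of all genes. The authors' deposited table gives Cdh5, the vascular cadherin, a log2 fold of 0.35 ± 0.16 and Pecam1, an endothelial adhesion molecule, 0.28 ± 0.13. The 4 endothelial markers with recovered reads, which do not include these, had sums of 1472, 1466 and 1159 on the positive side against 1403, 1163 and 1750 on the negative side, which overlap.

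Markers of mural cells, the pericytes and smooth muscle of vessels, gave 0 of 10 called by DESeq2 and 7 above 0, against 0.136% and 48.8% of all genes. Their median log2 fold change was 0.061. The 4 with an unadjusted p under 0.05 were all on the positive side, against 2.77% of all genes. These were Acta2, smooth muscle actin, at a log2 fold of 2.14 ± 0.76 in the authors' deposited table, Tagln, an actin-binding protein of smooth muscle, at 1.15 ± 0.52, Vtn, an adhesion glycoprotein of plasma and matrix, at 0.91 ± 0.43 and Anpep, a membrane aminopeptidase, at 0.84 ± 0.42. Acta2 had 47, 59 and 6 reads on the positive side against 12, 9 and 4 on the negative side, Tagln 111, 70 and 19 against 29, 28 and 28, and Anpep 117, 171 and 45 against 57, 56 and 65. For these 3 genes positive libraries 1 and 2 were above the other 4 libraries. The 5 mural markers with recovered reads had sums of 657, 663 and 426 against 474, 384 and 608, which overlap. The part of endothelial and mural cells in the collagen differences was not tested.

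Of the cartilage list 7 of 8 genes were measured, all with means under 10 and a highest mean of 4.64, and 1 was listed at 0. Of the epidermis list 3 of 5 were measured, with means of 1.84 at most, and 2 were listed at 0. The summed reads of the cartilage list were 28.0, 12.7 and 13.3 on the positive side against 10.8, 12.5 and 11.8 on the negative side. The bone list summed to 172, 99.8 and 122 against 177, 108 and 164. Of the 5 bone genes measured 3 lay above 0, against 48.8% of all genes, with a median log2 fold change of 0.043. DESeq2 called 0 of them, against 0.136% of all genes. Alpl had the highest mean of the list, 108. The 1 bone gene with an unadjusted p under 0.05, Ibsp, had 0, 3 and 2 reads against 17, 4 and 10. The log2 fold of Ibsp in the authors' deposited table was -2.61 ± 1.17. By DESeq2, 1.19% of all genes had an unadjusted p under 0.05 on the negative side. Of 6 radial glia genes 0 were called, against 0.136% of all genes (median log2 fold change 0.018). An unadjusted p under 0.05 was found for 1, on the negative side, against 1.19% of all genes. Of 6 cortical neuron genes 0 had either (median -0.039). All 5 genes of the skeletal muscle list were measured, with a highest mean of 14.2 and 4 of the means under 10. Of these 5 genes 3 lay above 0, and 0 were called or had an unadjusted p under 0.05 by DESeq2. Their sums were 28.0, 30.3 and 21.01 on the positive side against 16.2, 17.3 and 20.01 on the negative side. Positive library 3 was only just above negative library 3.

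**Figure D5:**
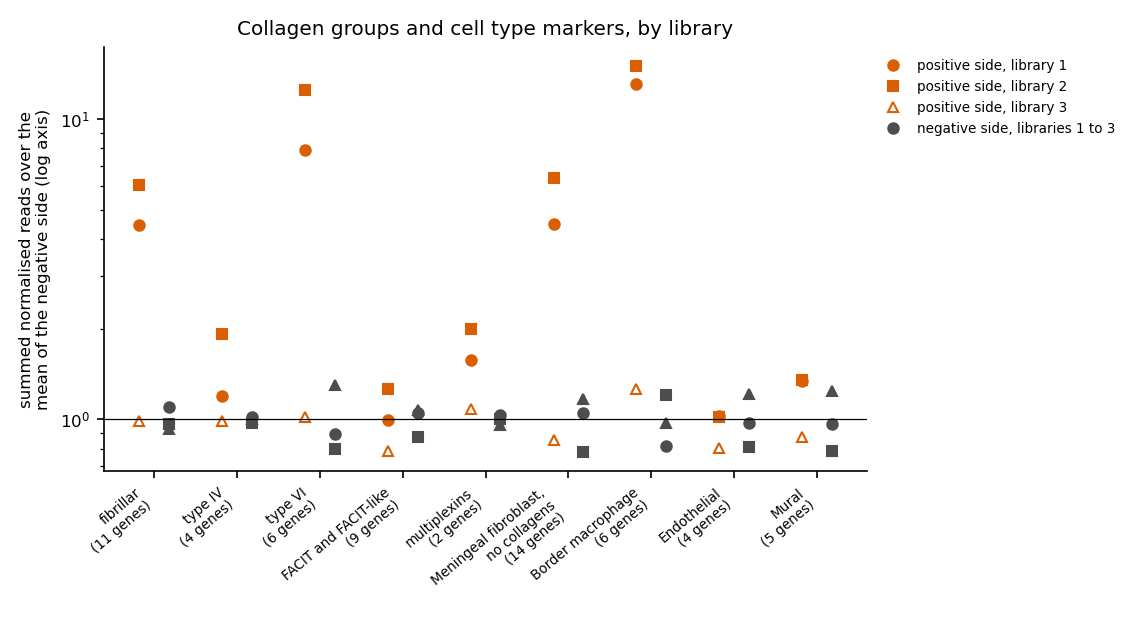
Summed normalised reads of collagen groups and of marker lists in each library, divided by the mean of the negative side (y axis, log scale), with 5 of 10 mural markers summed. Fibrillar and type VI collagens, meningeal fibroblast markers and border macrophage markers lie well above 1 in positive libraries 1 and 2 and near 1 in library 3, while the 4 of 10 endothelial markers with recovered reads lie near 1 in every library.

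For the machinery that makes, trims, binds and degrades collagen, 0 genes in 4 lists were called by DESeq2. Of all genes 0.136% were called, and 2.77% had an unadjusted p under 0.05 on the positive side. Of 20 genes for folding and secretion, 16 lay above 0 and 7 had an unadjusted p under 0.05 on the positive side, with a median log2 fold change of 0.19. Serpinh1, the collagen chaperone, stood in the authors' deposited table at 0.32 ± 0.10 (adjusted p = 0.20) and Fkbp10, a prolyl isomerase of the same pathway, at 0.81 ± 0.28 (adjusted p = 0.36). Creb3l1, a transcription factor of the secretory pathway of matrix cells, had 68, 120 and 13 reads against 29, 19 and 17, and Crtap, of the prolyl 3-hydroxylase complex, 409, 309 and 206 against 226, 219 and 183. The summed reads of the 12 resolved genes were 2418, 2510 and 1756 against 1733, 1717 and 1742.

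Of 13 genes for propeptide removal and crosslinking, 2 had an unadjusted p under 0.05, both on the positive side. Lox, the lysyl oxidase that crosslinks fibrils, had 267, 308 and 0 reads on the positive side against 6, 3 and 8 on the negative side, and in the authors' deposited table a log2 fold of 4.94 ± 1.90 (adjusted p = 0.62). Library 3, with 0 Lox reads, was the lowest of all 6. Pcolce, an enhancer of propeptide removal, had 158, 125 and 37 reads against 41, 39 and 31, and in the authors' deposited table a log2 fold of 1.47 ± 0.44 (adjusted p = 0.20). Loxl1 and Adamts2, next by p, stood at log2 folds of 0.61 ± 0.47 and 0.39 ± 0.31 in the authors' deposited table.

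Among 10 receptors 3 had an unadjusted p under 0.05 on the positive side. Itga11, an integrin subunit that binds type I collagen, had 73, 104 and 27 reads against 27, 30 and 25, and Ddr2, a receptor kinase for fibrillar collagen, had 384, 623 and 259 against 300, 204 and 248. The authors' deposited table gives them log2 folds of 1.27 ± 0.47 and 0.72 ± 0.27 (adjusted p = 0.52 and 0.59). The integrin subunit Itgb1 and the endocytic receptor Mrc2 stood at 0.15 ± 0.07 and 0.25 ± 0.16 in the authors' deposited table. Of 9 genes for degradation, Ctsk, a collagen-cleaving cathepsin, had 64, 52 and 7 reads against 7, 2 and 3, and in the authors' deposited table a log2 fold of 3.30 ± 0.83 (adjusted p = 0.051). Mmp2, a gelatinase, had 306, 299 and 111 reads against 160, 123 and 105 (log2 fold change 0.85 ± 0.31 in the authors' deposited table). Mmp9, also a gelatinase, went in the other direction with 310, 242 and 267 reads against 407, 344 and 312, and in the authors' deposited table a log2 fold of -0.39 ± 0.15 (adjusted p = 0.62).

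The upstream windows of the collagen genes were also set beside those of all genes. Of the 44 collagen genes 35 were matched in the RefSeq table, with 38 windows of 250 bases before the start. CCAAT was found in 13 of the 38 (34.2%) against 33.9% of 32851 windows of all genes, TATAAA in 5 (13.2%) against 12.4%, and GGGCGG in 22 (57.9%) against 32.7%. These shares describe letters in windows and are not tests of binding.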

How the data were processed

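Polyadenylated RNA was measured in 6 libraries, 3 labelled MPPH (Thr280Ala) and 3 labelled GFP only, which were grouped by their labels. Tools named in the submitters' processing notes are cutadapt, featureCounts and DESeq2, with mm10 as the build. Aligner, versions, annotation and strand setting are not given there. The single file is the authors' own comparison, with 0 columns of values per sample. Per the file headers, the authors' base mean is a signal, counts divided by size factors and averaged over libraries. Fold changes and standard errors were deposited in log2 units. The authors' Wald statistic, a score, is the ratio of these. Each deposited p-value, raw or Benjamini-Hochberg adjusted, is that of the authors' DESeq2 fit and was used as it stands.

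Reads per library were computed here. The lowest means give the worth of 1 read in each library, and whole-number sets were searched that give a base mean to 15 significant digits. A set was kept when the dispersion implied by the deposited error gave the deposited fold change to within 1e-05 (means under 100) or 1e-06. Sets with 0 reads on a side, as for Col13a1 and Slc22a6, had no such fold to check. Under a mean of 40 a lone set could be kept without the fold match. All 42 collagen genes with a mean up to 1200, and 9416 of 9471 genes with a mean up to 300, were resolved. With means shifted at random 0 of 37 were resolved, and on simulated data 189 of 189 were, 0 of them wrongly. Neither check reached the higher means of Col1a1, Col1a2, Col2a1, Col3a1 and Col18a1. Their reads rest on the match to the base mean and the fold change alone. Side means ± SD are of reads divided by size factors. Size factors ran from 0.850 to 1.11. Total depth is unknown, and 95% intervals come from the deposited standard errors.

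limma 3.58.1 (R 4.3.3, trend, log2 of normalised reads + 0.5, 4967 genes) was an alternative added after the data were seen. Of its genes 4957 had a mean of 10 to 300, and above 300 only collagen genes were tested. Python 3.11.15, numpy 2.4.6, pandas 2.3.3, scipy 1.17.1 and numba 0.67.0 were used. Exon lengths and coordinates are from GENCODE M21 (mm10), and 13 of the 44 collagen genes share exon bases with another annotated gene, 10 of them on the opposite strand. The members and all lists were chosen with earlier results of these data known, so lists are described by counts and medians without a test. Any collagen gene could be named. Those given in full were the called genes, the 4 highest per kb and the 4 with the smallest p in each group with their trimer or head-to-head partners, and from the other lists the called members and up to 4 with the smallest p. Slc22a6 was named outside this rule, after its values were seen.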

Additional observations from a re-analysis of the deposited data

How the results depend on the processing

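The number of collagen genes called, 2 as deposited, was 4 at an adjusted p under 0.10 and 1 when only genes of mean 50 or more were adjusted over. There Col13a1, whose mean is under 50, was not in the test and Col1a1 had an adjusted p of 0.020. It was 0 with the Wald statistic set against a t distribution on 4 degrees of freedom (9 at an unadjusted p under 0.05, 0 of all 18446 genes called) and 0 in limma's test (12 at an unadjusted p under 0.05). Leaving out 1 library in limma's test gave 0 to 13, with 13 only without positive library 3. Of all 4967 genes in that test, 0 to 184 were called, with 184 in the same setting. Adjustment over genes of mean 10 or more and centring on the median of genes of mean 50 or more left the collagen count at 2. Among all genes the calls were 31 of 13932 at a mean of 10 or more and 28 of 18446 after centring. They were 16 of 12019 at a mean of 50 or more. As deposited they were 25 of 18446, and 52 at an adjusted p under 0.10. The median log2 fold change of the collagen genes, 0.34 over 44 deposited folds, ranged from 0.35 to 0.63 under the other alternatives. From recovered reads it was 0.43 over 40 genes with all libraries and 0.31 to 0.52 without 1 library. That of type IV was 0.28 over 6 deposited folds. Over the 4 genes with recovered reads it was 0.10, and -0.038 without positive library 2, and the cause was not tested. The ratio of sides in summed reads, 2.39, ranged from 1.78 to 3.12 without 1 library. The median of the ratios of single genes was 1.25, since the sum is set by the abundant chains of types I and III. For the fibrillar chains these were 3.82, 2.72 to 5.24, and 1.56. No paired analysis was possible because the recovered libraries could not be tied to the replicate numbers of the labels. Reads could not be recovered for Col4a1 and Col4a2, and for the 11 collagen genes with a mean under 10 the depth limits what could be detected.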
